A study of Mus musculus with 16 samples.

Results

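The genes described are 10 transcription factors that mark radial glia or take part in making astrocytes: Sox9, Sox8, Sox2, Nfia, Nfib, Nfix, Zbtb20, Hopx, Emx2 and Lhx2. They were chosen by gene symbol, with no use of measured values in the rule, and make up 10 of the 53379 genes counted in each library. RNA-seq was done on green cells isolated by FACS from the neocortex of mice at postnatal day 4 with mosaic analysis with double markers (MADM), a method in which recombination between homologous chromosomes labels sparse cells in colors that follow their genotype. The series holds 16 libraries, each from 1 animal, and 15 of them have a group in the labels.

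All mice carried the 2 MADM cassettes on chromosome 7 (MADM7-GT/TG), Emx1-cre, which restricts recombination to progenitors of the dorsal telencephalon and their offspring, and the XGFAP-lacZ transgene, in which the human GFAP promoter drives lacZ. The strain label of all of them is CD1. Green cells of wild type mice were Eed+/+ (control-MADM), and green cells of mice heterozygous for Eed were Eed-/- (Eed-MADM) among mostly Eed+/- neighbours. Eed is needed for the activity of the Polycomb complex PRC2, which places the repressive H3K27 methyl mark. The astrocyte sort took GFP+/lacZ+ cells and the neuron sort took GFP+/lacZ- cells, which gave 5 libraries of Eed+/+ astrocytes, 5 of Eed-/- astrocytes, 2 of Eed+/+ neurons and 3 of Eed-/- neurons. In both genotypes the green cells have both copies of chromosome 7 from the father, and none of the 10 genes lies on that chromosome. The gate for neurons is the absence of lacZ, so it holds any Emx1-lineage cell without the transgene's product.

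Radial glia are the stem cells of the embryonic cortex. They first make neurons and then astrocytes, and the switch is accompanied by the SOX factor Sox9 inducing Nfia, after which both act together on genes of the early astrocyte. Sox2 keeps progenitors undifferentiated, Lhx2 and Emx2 pattern the cortex and hold radial glia in their neurogenic phase, Zbtb20 and the NFI proteins promote astrocyte formation and also act in differentiating cortical neurons, and Hopx, a homeodomain protein that does not bind DNA itself, marks outer radial glia and a later astrocyte population. Sox8 belongs with Sox9 to the SoxE family.

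On GRCm38, in the GENCODE annotation, the 3 SOX genes were Sox9 (chromosome 11, 112782224 to 112787760, plus strand), Sox8 (chromosome 17, 25565892 to 25570686, minus strand) and Sox2 (chromosome 3, 34650405 to 34652461, plus strand). The NFI genes were Nfia (chromosome 4, 97772734 to 98118874, plus strand), Nfib (chromosome 4, 82290173 to 82705750, minus strand) and Nfix (chromosome 8, 84699876 to 84800344, minus strand). The others were Zbtb20 (chromosome 16, 42875881 to 43642602, plus strand), Hopx (chromosome 5, 77086988 to 77115121, minus strand), Emx2 (chromosome 19, 59458372 to 59465357, plus strand) and Lhx2 (chromosome 2, 38339281 to 38369733, plus strand). The counting did not use strand, so reads from a stretch that 2 genes share could not be assigned. Hopx shared 27.2% of its exon length with an antisense gene that had 9 reads in all, Sox8 shared 10.6% with an antisense gene that had 2252 reads, and Emx2 shared 8.79% with an antisense gene that had 267 reads. Levels of these 3 genes are uncertain to that extent. Nfix shared 1.92% of its exon length, Zbtb20 0.609% and Nfia 0.0367%, and the other 4 genes shared none.

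RefSeq promoter windows of 300 bases on GRCm38.p6, from 250 bases before to 50 after the start, were found for 8 of the 10 genes. CpG dinucleotides are shown because PRC2 is known to reside at CpG-rich promoters. Over 32851 promoters the median was 7 CpGs. Lhx2 had 34, more than 92.3% of promoters, Sox2 had 27, Emx2 26, Sox8 21, Nfix 13, Hopx 8, Zbtb20 3 and Nfia 2. The windows of Nfia, Zbtb20 and Nfix lie at starts that are 190791, 371403 and 20262 bases from the start of the GENCODE gene, so their counts describe other starts of these genes, while those of Sox2 and Emx2 are 410 and 318 bases away. For Lhx2, Sox8 and Hopx the RefSeq start lies within 2 bases of the start of the GENCODE gene, and their 250 bases before it are printed 5′ to 3′ on the strand of the gene, with CpGs in capitals, from chr2:38339031-38339280 (plus strand), chr17:25570687-25570936 (minus strand) and chr5:77115124-77115373 (minus strand).
Lhx2: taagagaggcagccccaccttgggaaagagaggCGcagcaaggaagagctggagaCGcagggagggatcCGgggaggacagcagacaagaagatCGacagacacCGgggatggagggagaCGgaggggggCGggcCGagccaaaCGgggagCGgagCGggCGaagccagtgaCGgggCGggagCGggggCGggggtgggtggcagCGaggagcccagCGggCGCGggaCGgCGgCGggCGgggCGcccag
Sox8: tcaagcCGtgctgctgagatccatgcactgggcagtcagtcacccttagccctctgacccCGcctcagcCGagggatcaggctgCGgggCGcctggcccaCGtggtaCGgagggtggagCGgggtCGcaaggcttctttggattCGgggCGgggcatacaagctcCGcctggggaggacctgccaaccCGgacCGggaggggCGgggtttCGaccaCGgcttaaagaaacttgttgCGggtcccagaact
Hopx: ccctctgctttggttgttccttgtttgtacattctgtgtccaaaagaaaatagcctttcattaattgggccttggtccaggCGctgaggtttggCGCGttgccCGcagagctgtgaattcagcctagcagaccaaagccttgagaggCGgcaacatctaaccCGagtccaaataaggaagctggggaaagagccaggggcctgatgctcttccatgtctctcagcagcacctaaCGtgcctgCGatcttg
These 250 bases hold 25 CpGs in Lhx2, 18 in Sox8 and 8 in Hopx. The letters ACAAT, the core that SOX proteins bind, were found on either strand in 31.0% of the 300-base promoters and, among the 8, at the distant start of Nfia alone. TTGGC, the part of the site that NFI proteins bind, was found in 46.7% of promoters and in those of Sox2, Hopx, Lhx2 and Sox8. These letters are given as a description of the windows.

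The reads counted in genes ranged from 211736 to 3178529 over the 15 libraries. Of these, 10 had at least 1000000 uniquely aligned reads and at least 60% of reads uniquely aligned, limits the study names for its embryonic libraries, and are called within limits here (4 Eed+/+ astrocyte, 2 Eed-/- astrocyte, 1 Eed+/+ neuron and 3 Eed-/- neuron libraries). The other 5 had 211736 to 477760 reads in genes and 26.1% to 38.1% uniquely aligned. They were Eed+/+ astrocyte replicate 3, Eed-/- astrocyte replicates 1, 3 and 4, and Eed+/+ neuron replicate 2. Levels are given as CPM, the counts per 1000000 gene reads after scaling by the trimmed mean of M-values (TMM), and sums over lists as unscaled CPM, without the TMM factor. Eed itself stood at 28.2 to 75.6 CPM in Eed+/+ astrocytes within limits and at 14.1 and 17.2 CPM in the Eed-/- astrocytes within limits, while the 3 other Eed-/- astrocyte libraries had 0 reads and Eed+/+ astrocyte replicate 3 had 2. In neurons it was at 64.6 and 81.8 CPM in Eed+/+ and at 16.4, 33.3 and 37.8 CPM in Eed-/- cells. The counts cover the whole gene, and reads outside a deleted part are still counted.

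The sorted populations were checked against marker lists, as sums of unscaled CPM. The 10 astrocyte markers summed to 8038 to 13660 in the 6 astrocyte libraries within limits and to 4005 to 5744 in the 5 neuron libraries, where at least 9 of the 10 were detected. The 4 astrocyte libraries outside limits had 2045 (Eed+/+ replicate 3) and 1561, 7827 and 3589 (Eed-/- replicates 1, 3 and 4), so 3 of them lay below all neuron libraries. The lacZ- libraries were not free of astrocyte markers. The 10 neuron markers summed to 981 to 2690 in neuron libraries and to 31.3 to 3828 in astrocyte libraries, so these ranges overlapped, and the highest sum of all was that of Eed+/+ astrocyte replicate 3. Among the Eed-/- astrocyte libraries outside limits, replicate 4 had 0 reads for 7 of 10 astrocyte markers, Aqp4 and Gfap among them, replicate 1 had 10 of 10 microglia markers at a sum of 16433 and erythroid markers at 8829, and replicate 3 had 9 microglia markers at 2996. Erythroid markers summed to 11925 in replicate 4. Markers of the oligodendrocyte lineage summed to 209 to 6311 over all groups, endothelial markers to at most 54.4, and intermediate progenitor markers to 64.0 to 1501. In the neuron libraries the oligodendrocyte lineage sum was 1292 to 4336. In every neuron library both this sum and the astrocyte marker sum lay above the neuron marker sum. The lists hold different genes, so their sums are not shares of cells. The name neuron stands here for the lacZ- sort. In sorted bulk libraries, fewer cells of a type and less RNA per cell cannot be told apart.

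**Figure D1:**
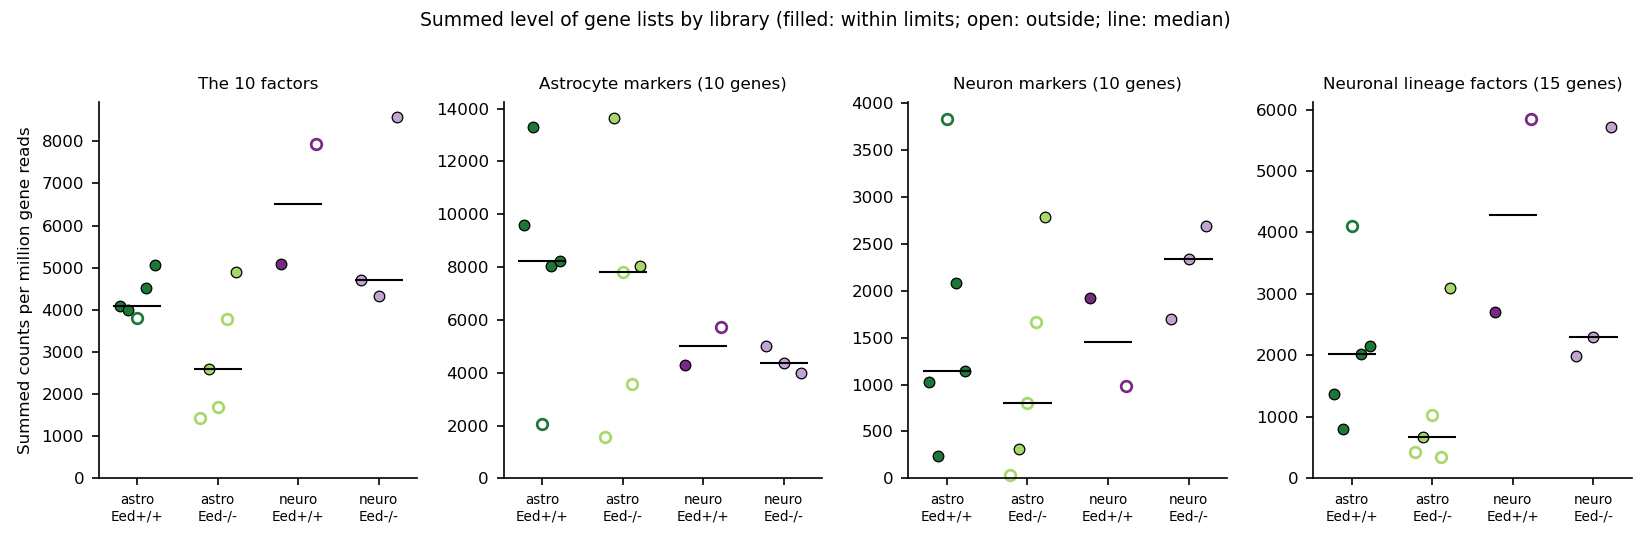
Summed unscaled CPM (y axes, linear from 0) in the 15 libraries by group (x axes) for the 10 factors and for the astrocyte, neuron and neuronal lineage lists, with filled points within limits, open points outside and a line at the median. Astrocyte markers lie between 8038 and 13660 in astrocyte libraries within limits and between 4005 and 5744 in neuron libraries, and the 4 astrocyte libraries outside limits have 1561, 2045, 3589 and 7827.

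The factors were present in both sorted populations. All 10 genes had reads in 12 of the 15 libraries, and the other 3 were outside limits, with 9 genes in Eed+/+ astrocyte replicate 3, 7 in Eed-/- astrocyte replicate 1 and 6 in Eed-/- astrocyte replicate 4. Together they took 1431 to 5074 unscaled CPM in astrocyte libraries and 4329 to 8586 in neuron libraries. Per kilobase of exon, Sox9 had the highest median over the 10 libraries within limits, at 223 CPM per kilobase, followed by Sox2 at 135, Nfix at 84.8, Nfia at 83.4, Sox8 at 77.5, Lhx2 at 48.3, Nfib at 34.9, Zbtb20 at 27.8, Emx2 at 21.1 and Hopx at 14.2. For all 9 pairs of neighbours in that order the ranges overlapped. In Eed+/+ astrocytes within limits, Sox9 (245 to 338 CPM per kilobase) lay above Sox2 (74.6 to 215) and Lhx2 (37.5 to 65.7) above Nfib (27.5 to 35.2) with no overlap, and the other 7 pairs of neighbours overlapped. Exons of all annotated transcripts were summed, so a gene with many of them, such as Zbtb20 with 30730 bases, reads low per kilobase.

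The first question was whether the factors differed between sorted astrocytes and neurons. Over all 15 libraries none of the 10 genes (0) passed an adjusted p of 0.05 by edgeR, nor did any (0) have an unadjusted p under 0.05. The background was low as well, with 0.015% of 13367 genes called, which is 2 genes, and 736 at an unadjusted p under 0.05. The log2 fold changes, astrocyte minus neuron over both genotypes, were negative for 9 of the 10, with a median of -0.79 against -0.34 for all genes tested. Over the libraries within limits 4 were positive and 6 negative, with a median of -0.03 against -0.16 for all genes, and again 0 of 10 passed, against 0% of 14445 genes called and 1111 at an unadjusted p under 0.05. By DESeq2 over the 15 libraries 0 of 10 passed as well, against 0.0391% of genes, and 1 of the 10 had an unadjusted p under 0.05 (0.0382). Astrocyte and neuron libraries overlapped for every one of the 10 genes, over all libraries (0 genes without overlap, against 0.474% of all genes with a mean of at least 10 CPM) and within limits (0 genes, against 3.69%).

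Sox9, which induces the astrocyte program and is used as an astrocyte marker, had the highest values in Eed+/+ astrocytes. In replicates 1 to 5 of these it stood at 1015, 1399, 201, 1076 and 1387 CPM, and in Eed-/- astrocytes at 82.2, 946, 8.87, 0 and 693 CPM. In neurons it was at 606 and 853 CPM in Eed+/+ and at 899, 648 and 528 CPM in Eed-/- cells. The 4 Eed+/+ astrocyte libraries within limits lay above all neuron libraries, whereas replicate 3 and the 3 Eed-/- libraries outside limits lay below all of them, so the sorted populations overlapped. The share of all genes that separates these 4 libraries from all neuron libraries was not counted. The log2 fold change, astrocyte minus neuron, was -0.26 (95% interval -1.83 to 1.31, adjusted p = 1.00 by edgeR) over the 15 libraries and 0.59 (95% interval -0.06 to 1.25, adjusted p = 0.694) within limits. Within limits the mean was 1086 ± 271 CPM in astrocytes (SD, n = 6) and 670 ± 160 CPM in neurons (SD, n = 4).

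Sox8, the other SoxE gene, had values that overlapped between the sorted populations. Eed+/+ astrocytes had 245, 241, 65.1, 159 and 197 CPM, Eed-/- astrocytes 1.71, 245, 106, 9.53 and 426, Eed+/+ neurons 243 and 195, and Eed-/- neurons 407, 202 and 235. The highest value was in an astrocyte library and the next in a neuron library. The log2 fold change was -0.55 (95% interval -2.36 to 1.27) over all libraries and -0.01 (95% interval -0.72 to 0.70) within limits.

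Sox2, the progenitor factor, had 153, 443, 177, 309 and 348 CPM in Eed+/+ astrocytes and 0, 228, 2.96, 85.8 and 245 in Eed-/- astrocytes. Neuron libraries had 345 and 478 CPM in Eed+/+ and 172, 108 and 391 in Eed-/- cells. Within limits the ranges overlapped, from 153 to 443 CPM in astrocytes and from 108 to 391 CPM in neurons. The log2 fold change was -0.75 (95% interval -2.53 to 1.02) over all libraries and -0.05 (95% interval -0.94 to 0.84) within limits.

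The NFI genes, which act after Sox9 in the start of gliogenesis, had higher mean values in neurons than in astrocytes in both sets of libraries, with the genotypes pooled. In Eed+/+ cells alone, Nfia had a log2 fold change, astrocyte minus neuron, of -0.02 over all libraries and 0.23 within limits. Nfia stood at 868, 884, 501, 982 and 1390 CPM in Eed+/+ astrocytes, at 122, 559, 405, 3.18 and 681 in Eed-/- astrocytes, at 838 and 1035 in Eed+/+ neurons and at 1063, 933 and 1588 in Eed-/- neurons. Nfib stood at 518, 412, 592, 526 and 430 CPM in Eed+/+ astrocytes, the narrowest spread relative to the mean of any of the 10 genes in that group, at 47.9, 200, 441, 439 and 931 in Eed-/- astrocytes, at 882 and 2014 in Eed+/+ neurons and at 501, 613 and 1852 in Eed-/- neurons. Nfix stood at 610, 381, 782, 689 and 602 CPM in Eed+/+ astrocytes, at 17.1, 300.2, 213, 1004 and 784 in Eed-/- astrocytes, at 636 and 1127 in Eed+/+ neurons and at 590, 847 and 1610 in Eed-/- neurons. For Nfib and Nfix, Eed+/+ neuron replicate 2 and Eed-/- neuron replicate 3 were the highest 2 of all 15 libraries. The log2 fold changes were -0.89 for Nfia (95% interval -2.40 to 0.63), -1.40 for Nfib (95% interval -2.93 to 0.12, adjusted p = 0.938 by edgeR) and -0.83 for Nfix (95% interval -2.37 to 0.72). Within limits they were -0.36, -0.89 and -0.57, with intervals that all included 0.

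Zbtb20, a zinc finger repressor of the hippocampus and of astrocytes, followed the same libraries. It had 856, 612, 916, 992 and 930 CPM in Eed+/+ astrocytes, 452, 399, 497, 1004 and 853 in Eed-/- astrocytes, 1122 and 2225 in Eed+/+ neurons and 722, 852 and 2158 in Eed-/- neurons. It was the only one of the 10 with at least 399 CPM in every one of the 15 libraries. The log2 fold change was -0.96 (95% interval -2.43 to 0.51) over all libraries and -0.73 (95% interval -1.53 to 0.07, adjusted p = 0.683 by edgeR) within limits. Summed neuronal lineage transcription factors, a list of 15 genes such as Neurod2 and Tbr1, were also highest in Eed+/+ neuron replicate 2 (5855 unscaled CPM, 13 genes detected) and Eed-/- neuron replicate 3 (5725, 15 detected), against 1986 to 2704 in the other neuron libraries and 354 to 4100 in astrocyte libraries. The part of neuronal cells in the levels of Nfib, Nfix and Zbtb20 was not tested.

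Of the patterning factors, Lhx2 had 172, 199, 117, 165 and 289 CPM in Eed+/+ astrocytes, 0, 253, 189, 0 and 226 in Eed-/- astrocytes, 155 and 478 in Eed+/+ neurons and 154, 268 and 260.0 in Eed-/- neurons. Within limits it had the smallest span of the 10 genes, 1.87-fold from the lowest to the highest library. Emx2 had 40.7, 99.0, 0, 80.7 and 63.9 CPM in Eed+/+ astrocytes, 216, 64.0, 29.6, 0 and 30.2 in Eed-/- astrocytes, 28.8 and 44.1 in Eed+/+ neurons and 57.6, 65.9 and 62.8 in Eed-/- neurons. Hopx had 7.83, 31.1, 29.8, 2.29 and 17.9 CPM in Eed+/+ astrocytes, 0, 46.8, 136, 0 and 25.2 in Eed-/- astrocytes, 5.87 and 145 in Eed+/+ neurons and 45.2, 12.8 and 46.5 in Eed-/- neurons. Hopx rested on 502 reads in all 15 libraries together, and its lowest and highest libraries within limits differed 20.4-fold. The log2 fold changes were -0.75 for Lhx2 (95% interval -2.56 to 1.05), 0.39 for Emx2 (95% interval -1.83 to 2.61) and -0.91 for Hopx (95% interval -3.15 to 1.33), and within limits 0.21, 0.43 and 0.67. Values of 0 in Eed-/- astrocyte replicates 1 and 4 and in Eed+/+ astrocyte replicate 3 allow levels of up to 5.14, 9.53 and 5.58 CPM.

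**Figure D2:**
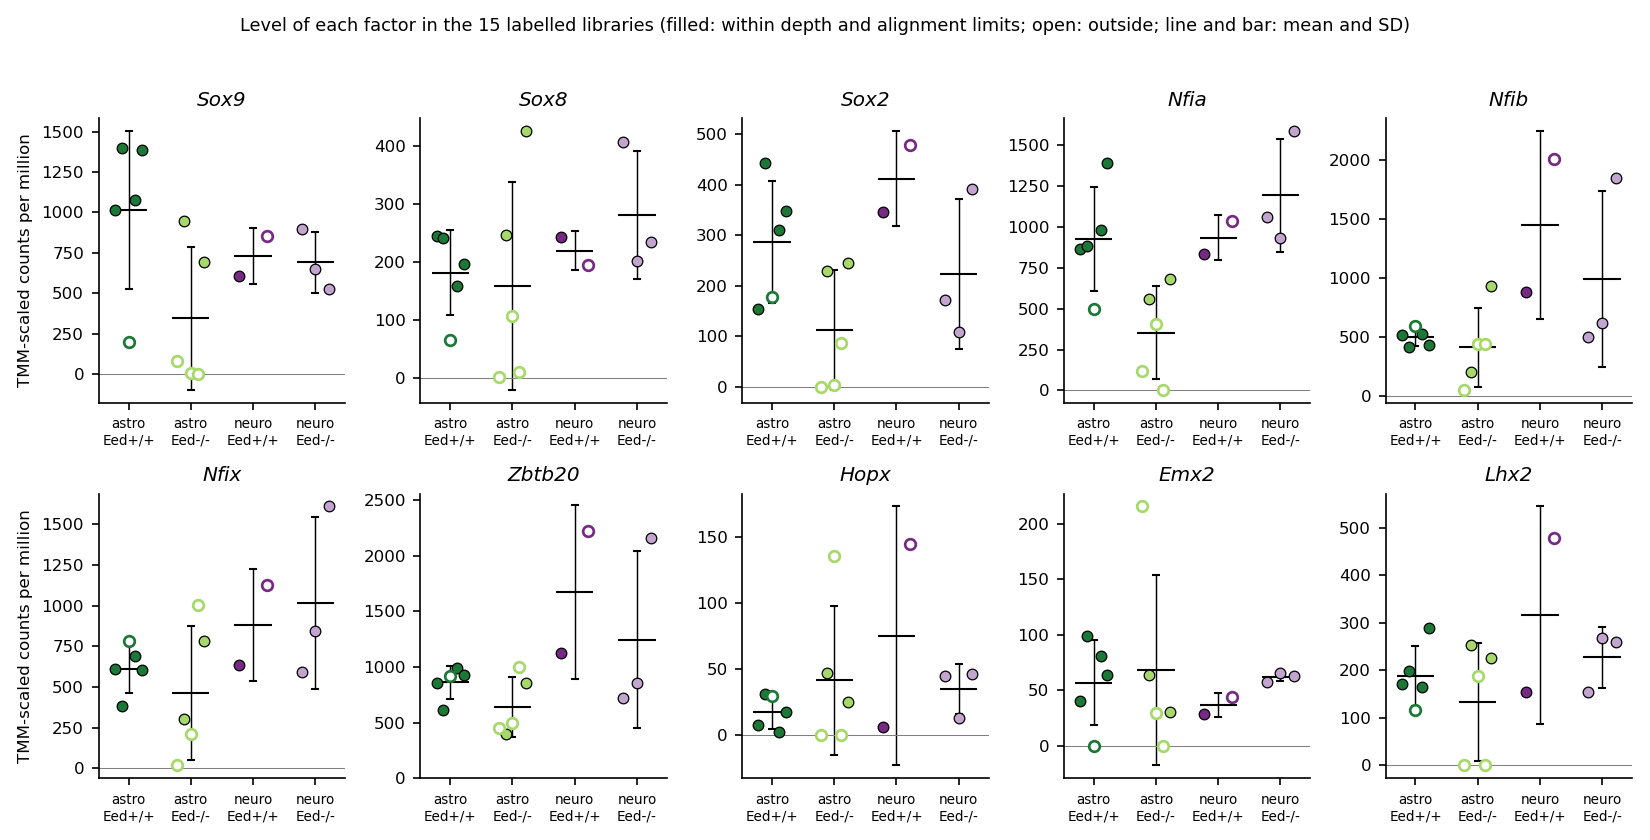
TMM-scaled CPM (y axes, linear) of each of the 10 genes in the 15 labelled libraries by group (x axes), with filled points for libraries within limits, open points for libraries outside, and a line and bar for the mean and SD. Sox9 lies at 1015 to 1399 CPM in the 4 filled Eed+/+ astrocyte points and at 528 to 899 CPM in neurons, and its 3 open Eed-/- astrocyte points lie at 0 to 82.2 CPM.

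The balance between the genes within a library does not depend on scaling. It was looked at after the values were seen, and no test was made of it. Sox9 reads per 100 reads of the 3 NFI genes together numbered 50.8, 83.4, 49.0 and 57.3 in Eed+/+ astrocyte replicates 1, 2, 4 and 5, and 89.3 and 28.9 in Eed-/- astrocyte replicates 2 and 5. Neuron libraries had 25.7 and 20.4 in Eed+/+ and 41.7, 27.1 and 10.4 in Eed-/- cells. All 4 Eed+/+ astrocyte libraries within limits lay above all neuron libraries, while Eed-/- astrocyte replicate 5 lay among them. This sets astrocytes of a single genotype, within limits, against neurons of both genotypes, among them Eed+/+ replicate 2, which is outside limits. How often other pairs of genes separate these libraries was not counted. Outside limits the astrocyte libraries had 10.7 in Eed+/+ replicate 3 and 44.0, 0.838 and 0 in Eed-/- replicates 1, 3 and 4. As a share of the reads of the 10 genes, Sox9 took 21.6% to 29.8% in Eed+/+ astrocytes within limits and 6.04% to 19.5% in neurons, and Nfib took 7.61% to 11.6% and 10.9% to 23.4%. In Eed-/- astrocyte replicates 2 and 5 Sox9 took 29.2% and 14.2%, and Nfib 6.17% and 19.0%. Astrocyte libraries outside limits had 0% to 8.76% for Sox9 and 5.11% to 21.7% for Nfib, so the sorted populations overlapped. In Eed-/- astrocyte replicate 1 Zbtb20 and Emx2 took 48.2% and 23.0%, and in replicate 4 Nfix and Zbtb20 took 39.5% each.

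**Figure D3:**
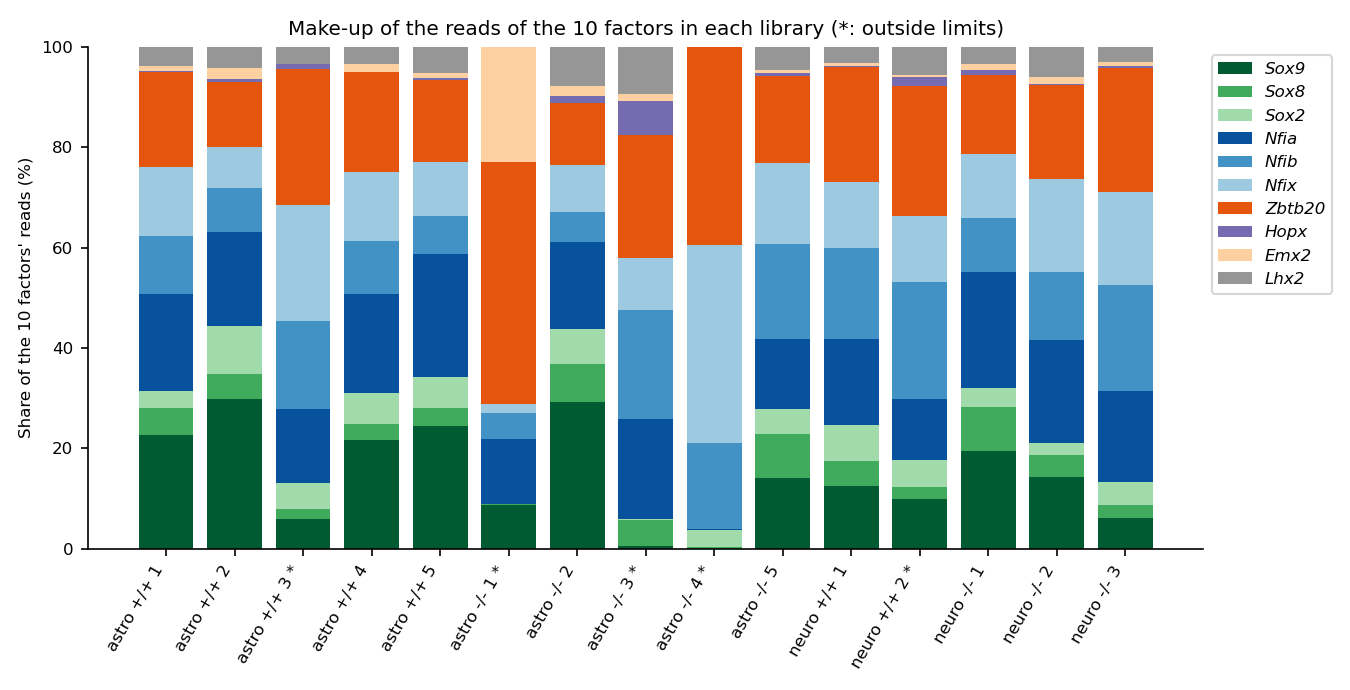
Share of the reads of the 10 genes (y axis, percent, stacked to 100) taken by each gene in the 15 labelled libraries (x axis, an asterisk marks libraries outside limits). Sox9 takes 21.6% to 29.8% in the Eed+/+ astrocyte libraries within limits and 6.04% to 19.5% in neuron libraries. It takes 29.2% and 14.2% in the Eed-/- astrocyte libraries within limits and 0% to 8.76% in astrocyte libraries outside limits.

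Within each genotype, too, no factor differed between the sorted populations past the threshold. In Eed+/+ cells 0 of 10 genes passed, against 0.00748% of genes tested, and in Eed-/- cells 0 of 10 passed, against 0.0598%. The latter is 8 genes, all higher in astrocytes, and 3 of them are the hemoglobin genes Hba-a1, Hbb-bs and Hbb-bt (adjusted p = 0.0027, 7.19e-05 and 0.0101 by edgeR), whose reads came with the erythroid markers of Eed-/- astrocyte replicates 1 and 4. None of the 10 (0) had an unadjusted p under 0.05 in either by edgeR over all libraries, and DESeq2 called 0 of 10 in both, against 0.0625% of genes in Eed+/+ and 0.139% in Eed-/- cells. In Eed+/+ cells Sox9 had a log2 fold change of 0.48 (95% interval -1.97 to 2.93) over all libraries and 0.95 (95% interval -0.11 to 2.00) within limits, where 1 neuron library stands alone. In Eed-/- cells the value of Sox9 was -0.99 (95% interval -3.04 to 1.05) over all libraries and 0.24 (95% interval -0.56 to 1.05) within limits. Nfia in Eed+/+ cells stood at -0.02 (95% interval -2.37 to 2.33) over all libraries and at 0.23 within limits. Nfia in Eed-/- cells stood at -1.75 (95% interval -3.76 to 0.26, adjusted p = 0.886 by edgeR) and within limits at -0.95 (95% interval -1.77 to -0.13, adjusted p = 0.674 by edgeR).

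The second question was whether loss of Eed changed the factors in astrocytes. None of the 10 (0) passed by edgeR, against 0% of 8956 genes called and 108 at an unadjusted p under 0.05, none of them among the 10 (0). DESeq2 called 0 of 10 and 0.0116% of genes. The log2 fold changes, Eed-/- minus Eed+/+, were negative for 8 of 10 genes, with a median of -0.29 against -0.54 for all genes tested. The lowest values were those of Sox9 at -1.52 (95% interval -3.58 to 0.53), Nfia at -1.34 (95% interval -3.40 to 0.72) and Sox2 at -1.28 (95% interval -3.75 to 1.18). Mean levels were 1016 ± 488 CPM in Eed+/+ and 346 ± 443 CPM in Eed-/- astrocytes for Sox9, 925 ± 318 and 354 ± 287 CPM for Nfia, and 286 ± 121 and 112 ± 119 CPM for Sox2 (SD, n = 5 each). The groups overlapped for all 10 genes (0 without overlap, against 1.59% of all genes with a mean of at least 10 CPM), and for these 3 the low Eed-/- values came from replicates 1, 3 and 4, the libraries with few astrocyte markers or with microglia or erythroid RNA described above. The part of that RNA in these values was not tested.

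Within limits, with 4 Eed+/+ and 2 Eed-/- astrocyte libraries, Sox9 stood at -0.56 (95% interval -1.31 to 0.18), Nfia at -0.72 (95% interval -1.49 to 0.05) and Sox2 at -0.40 (95% interval -1.38 to 0.58). Again 0 of 10 passed, against 0% of 12070 genes, and the adjusted p was 1.00 by edgeR for each gene. The 2 Eed-/- libraries did not overlap the 4 Eed+/+ libraries for 3 of 10 genes, Sox9 and Nfia being lower and Sox8 higher (245 and 426 against 159 to 245 CPM), while 14.9% of all genes with a mean of at least 10 CPM did not overlap. For Sox8 the gap lay between neighbouring values of 244.9 and 245.5 CPM. Nfib had -0.18 over all libraries and 0.27 within limits, Nfix -0.28 and -0.06, and Zbtb20 -0.31 and -0.43, and the values of these 3 turned positive over all libraries, at 0.12, 0.20 and 0.19, with RLE size factors in place of TMM. Hopx had 1.28 over all libraries (95% interval -1.85 to 4.41) and 1.29 within limits, but 0.049 without Eed-/- astrocyte replicate 3, the library with its highest astrocyte value. Emx2 had 0.35 and -0.58, Lhx2 -0.45 and 0.23, and Sox8 -0.15 and 0.69, so that the sign of these 3 depended on the libraries used. The 2 Eed-/- libraries within limits also differed from each other, with Nfib at 200 and 931 CPM and Sox9 at 946 and 693 CPM.

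The third question was whether loss of Eed changed the factors in neurons, with 2 Eed+/+ and 3 Eed-/- libraries. Again none (0) passed by edgeR, against 0% of 11862 genes called and 861 at an unadjusted p under 0.05, none of them among the 10 (0). DESeq2 called 0 of 10 and 0.269% of genes. The log2 fold changes ran from -1.23 for Hopx (95% interval -3.47 to 1.01) and -1.01 for Sox2 (95% interval -2.48 to 0.47) to 0.69 for Emx2 (95% interval -0.82 to 2.19), with a median of -0.38 against 0.15 for all genes. Sox9 was at -0.20 (95% interval -1.63 to 1.23), Sox8 at 0.25, Nfia at 0.23, Nfib at -0.69, Nfix at 0.08, Zbtb20 at -0.56 and Lhx2 at -0.61. Emx2 was the only gene of the 10 whose groups did not overlap, at 28.8 and 44.1 CPM in Eed+/+ and 57.6 to 65.9 CPM in Eed-/- neurons, where 22.6% of all genes with a mean of at least 10 CPM did not overlap.

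Hopx in neurons depended on which Eed+/+ library it was compared with, since the pair stood at 5.87 and 145 CPM (11 and 46 reads) around the Eed-/- values of 12.8 to 46.5 CPM. Without Eed+/+ neuron replicate 1 its log2 fold change was -1.97, and the lone Eed+/+ library left is the one outside limits. Without Eed+/+ neuron replicate 2, the library outside limits, the value of Hopx was 2.50. In both fits the lone Eed+/+ library is assumed to vary like the Eed-/- libraries. Within limits Sox9, Nfib, Zbtb20 and Lhx2 had positive values too, at 0.15, 0.12, 0.11 and 0.53, and 0.00781% of genes were called, none of them (0) among the 10. The lone Eed+/+ library lay below all 3 Eed-/- libraries for Nfia, Hopx and Emx2, 3 of the 10 genes, where 38.6% of all genes did not overlap.

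**Figure D4:**
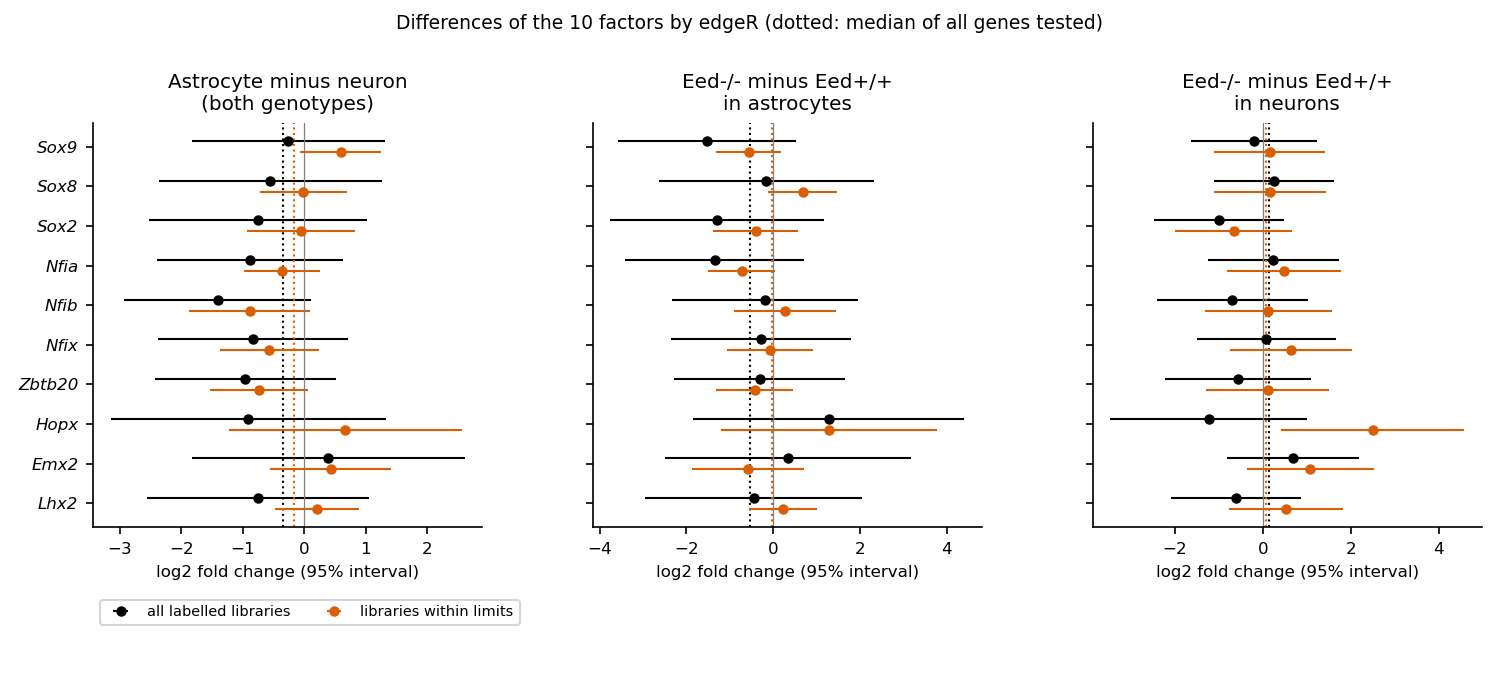
Log2 fold changes (x axes) with 95% intervals of the 10 genes (y axis) by edgeR, for astrocyte minus neuron and for Eed-/- minus Eed+/+ in each cell type, over all labelled libraries (black) and libraries within limits (orange), with dotted lines at the median of all genes tested. The black intervals all include 0, and the orange interval of Hopx in neurons (0.42 to 4.58) is the only orange one that does not.

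Whether the effect of genotype differed between cell types was tested as an interaction, and 0 of 10 genes passed, against 0.0524% of 13367 genes and with 0 of the 10 at an unadjusted p under 0.05. DESeq2 called 0 of the 9 genes for which it gave an adjusted p, against 0.264% of genes, and gave none for Hopx. Of the 7 genes called by edgeR, 2 were Hba-a1 and Hbb-bs. The log2 values, effect in astrocytes minus effect in neurons, ran from -1.74 for Nfia (95% interval -4.94 to 1.47) to 2.32 for Hopx (95% interval -2.26 to 6.91), with 3 positive and 7 negative and a median of -0.49 against -0.79 for all genes. Within limits 3 were again positive and 7 negative, but Hopx turned to -1.20, Zbtb20 to -0.52, Sox2 to 0.29 and Sox8 to 0.51. With RLE size factors or DESeq2 7 values were positive and 3 negative, with a median of 0.40 in both. The directions of these genes thus depended on the libraries, and the split on the scaling. Nfia stayed negative, at -1.18 within limits and -1.25 by DESeq2. The intervals of the 10 genes reached 3.13 to 4.58 to either side of the value on the log2 scale.

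Related genes were described by lists that share no gene with the 10. Of 15 further radial glia and progenitor transcription factors, such as Pax6 and Hes5, 0 passed in the cell type comparison, with 2 positive and 13 negative values and a median of -0.74 over all libraries, and with 3 and 12 and a median of -0.88 within limits. Of 15 astrocyte-enriched transcription regulators, such as Id3 and Npas3, 0 passed, with 5 positive and 10 negative values and a median of -0.21, and with 11 and 4 and a median of 0.33 within limits. Of 7 genes reported as targets of SOX or NFI factors, such as Slc1a3, which encodes a glutamate transporter, and Fabp7, a fatty acid binding protein of radial glia, 0 passed, with 5 positive and 2 negative values and a median of 0.67, and with 6 and 1 and a median of 1.09 within limits. Slc1a3 had 1.28 within limits, with an adjusted p of 0.500 by edgeR. Of 7 membrane and matrix markers of radial glia, such as Vim and Tnc, 0 passed, with medians of 0.22 over all libraries and 1.16 within limits. By comparison, the 10 astrocyte markers had a median of 0.73 and 9 positive values over all libraries and a median of 1.36 within limits, with 0 passed. The 15 neuronal lineage factors had medians of -0.54 and -0.47 and the 10 neuron markers of -0.59 and -0.85, with 0 passed in both. Within limits an unadjusted p under 0.05 was found for 8 astrocyte markers, 4 of the reported targets, 4 membrane and matrix markers and 3 astrocyte-enriched regulators, all higher in astrocytes, and for 2 radial glia factors and 2 neuron markers, lower in astrocytes, where 1111 of 14445 genes had one in either direction. Over all libraries 0 genes of the astrocyte marker, target, membrane and matrix, regulator and radial glia lists had one. There 1 neuron marker was higher and 3 neuronal lineage factors were lower in astrocytes, against 736 of 13367 genes in either direction.

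In the genotype comparisons 0 genes of these lists passed. In astrocytes 12 of the 13 radial glia factors tested were negative, with a median of -0.64 (-0.61 within limits), as were 12 of the 15 astrocyte-enriched regulators, with a median of -0.81 (-0.35 within limits), and 5 of the 7 reported targets, with a median of -0.74 (-0.38 within limits), where the median of all genes was -0.54 (-0.02 within limits). In neurons the medians of these 3 lists were 0.06, 0.18 and 0.62, against 0.15 for all genes. In the same comparison the 10 neuron markers had a median of 1.48, with 8 positive and 4 higher in Eed-/- neurons at an unadjusted p under 0.05 by edgeR, and the 15 neuronal lineage factors had 0.53, with 4 higher and 2 lower at that level. Of all genes, 861 of 11862 reached that level in either direction. Within limits these medians were 0.84 and 0.94, against 0.07 for all genes. The part of neuron content in the values of the 10 factors was not tested.

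The genes whose levels over the 15 libraries were most like the mean of the 10 on the log2 scale, among 9997 protein-coding genes with a mean of at least 10 CPM, were Baz2b (Spearman's rho 0.95), Tfam (0.948), Fgfr1op (0.932), Zfr (0.929) and Rest (0.921). Over the 10 libraries within limits they were Trip4 and Bend6 (0.927 each), Riok3 and Wdfy1 (0.891 each) and Adrb1 (0.879). No gene is in both lists of 5, and of the first 5 Baz2b had 0.867 within limits. These values share libraries, depth and scaling and are given as a description.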

How the data were processed

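The 10 genes, the related lists and the alternatives were chosen with earlier results of these data known. Libraries of full-length cDNA were made from sorted cells with Smart-Seq v2 and sequenced on an Illumina HiSeq. The authors used STAR for alignment, with mm10 (GRCm38) as the build in the submitters' processing notes, and deposited whole-number counts of reads for every gene, neither normalized nor pooled. The sources used here do not give their annotation. The unstranded counts were used, without the 4 lines of read totals in each file. Reads outside genes made up 8.55% to 19.8% of uniquely aligned reads in libraries within limits and 46.7% to 71.6% in the others. No column was without a sample (0 columns). Symbols and coordinates came from GENCODE mouse release 21, which matched 53274 of 53379 identifiers.

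Genes were tested on the counts with edgeR 4.0.16 in R 4.3.3 (TMM, filterByExpr, robust quasi-likelihood F-test, two-sided), with Benjamini-Hochberg adjustment over all genes tested and a threshold of 0.05. Cell type and interaction contrasts came from 1 fit over the 15 labelled libraries, and genotype contrasts from fits within each cell type, without covariates. The scripts were tested on simulated data. Alternatives were DESeq2 1.42.0, RLE size factors, other filters, libraries within limits, the replicate number as a block, the run of library numbers and leaving out each library. A run is a stretch of consecutive library numbers in the deposited names. The labels name no sequencing run or batch. The limits were stated for embryonic libraries. The study set 5 of its 16 samples aside without naming them in the sources used here, so all labelled libraries were kept in the main fits, and results within limits stand beside them. The cell type and genotype comparisons share libraries. All 10 genes were tested in every comparison, and of the lists the genes called are named, with counts for the rest. Slc1a3 was named with its value after the values were seen. The 95% intervals are those of the edgeR fits and include the spread between libraries. Floors (3 counts) cover counting error only, since reads without molecular identifiers are not independent molecules. Deviations of same-numbered libraries from their group means had correlations of -0.24 to 0.15 over the pairs. Pairs of the same genotype, the only ones that could share an animal, had -0.05 to 0.12. With groups this small, these values cannot show that a pairing is absent. A library, whose title and cell type label disagree, entered no comparison.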

Additional observations from a re-analysis of the deposited data

Results flagged for a closer look

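The library without a group had 122 reads of Emx2, which is 551 unscaled CPM, above the highest value among the Eed+/+ libraries (84.0). It was set apart because it belongs to no comparison and lies above all control libraries. Its label is Eed-/-, and Eed-/- astrocyte replicate 1, a library outside limits, had 126 reads of Emx2, which is 329 unscaled CPM. The library without a group had 221456 reads in genes and 17.7% of reads uniquely aligned, the lowest share of the 16 libraries. In the groups of 5 libraries no value of the 10 genes (0 of 20 groups) stood apart from the others by Dixon's criterion, where chance gives about 1.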

How the results depend on the processing

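The number of the 10 genes called was 0 in all 6 comparisons under every alternative other than 1, the genotype comparison of neurons without Eed+/+ neuron replicate 1. That fit leaves a lone Eed+/+ library, outside limits, so its call of Hopx is not read as a result. Of 550 alternative values of single genes, 503 kept their direction and side of the threshold, 46 changed sign and 1 passed the threshold. The signs that changed were all of values that did not pass. Within limits the cell type values became 0.59 (Sox9), 0.67 (Hopx) and 0.21 (Lhx2), the genotype values in astrocytes 0.27 (Nfib), -0.58 (Emx2), 0.23 (Lhx2) and 0.69 (Sox8), and those in neurons 0.15 (Sox9), 0.12 (Nfib), 0.11 (Zbtb20), 2.50 (Hopx) and 0.53 (Lhx2). In astrocytes DESeq2 and RLE size factors both gave 0.12 (Nfib), 0.20 (Nfix) and 0.19 (Zbtb20), a covariate for the run of the library numbers gave -0.45 (Emx2), and the second run alone gave 0.44 (Nfib), 0.44 (Nfix), 0.040 (Zbtb20), -0.38 (Hopx), -1.60 (Emx2) and 0.66 (Sox8). Neurons lie in 1 run. The cause was not tested.

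With the replicate block 0 of the 10 genes were called in each comparison. The block turned Hopx to -0.26 in astrocytes, and Nfia to -0.0025 and Nfix to -0.36 in neurons. It changed no call. The numbers are shared without a pairing in the labels, and the correlations of same-numbered libraries ran from -0.24 to 0.15. In the genotype comparisons the block joins libraries of different animals by number alone.

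Leaving out 1 library at a time, the cell type values ranged from -0.12 to 0.58 for Emx2, -1.49 to 0.89 for Hopx, -0.64 to -0.054 for Sox9 and -1.05 to -0.25 for Lhx2. In astrocytes they ranged from -0.82 to 0.66 for Emx2, 0.049 (without Eed-/- astrocyte replicate 3) to 1.59 for Hopx, -0.59 to 0.10 for Nfib, -0.88 to 0.026 for Nfix and -0.96 to 0.15 for Sox8. In neurons they ranged from -1.97 to 2.50 for Hopx, -0.97 to 0.53 for Lhx2, -1.45 to 0.12 for Nfib, -0.36 to 0.64 for Nfix, -0.091 to 0.63 for Sox8, -0.41 to 0.15 for Sox9 and -1.15 to 0.11 for Zbtb20. Without a change of sign, Sox9 in astrocytes ranged from -2.27 to -1.21 and Sox2 in neurons from -1.62 to -0.67.

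Counts of all genes called moved more. For genotype in astrocytes 0 became 46 in a fit over all 15 libraries, 24 with a mean count above 10, 5 without a filter, 4 in the first run and 1 by DESeq2. For genotype in neurons 0 became 127 without a filter, 27 by DESeq2, 3 in the 15-library fit and 1 within limits. The 2 genes of the cell type comparison became 5 by DESeq2, 1 with a mean count above 10, and 0 without a filter, within limits, with the run as a covariate, with the block and in the first run. In Eed+/+ cells 1 became 8 (DESeq2), 7 (run), 6 (RLE), 3 (mean count above 10), 2 (no filter) and 0 (within limits, block, first run). In Eed-/- cells 8 became 13 (DESeq2 and mean count above 10), 5 (block), 3 (no filter) and 0 (within limits, first run). The 7 of the interaction became 21 (RLE), 2 (no filter, block) and 0 (within limits). Leaving out 1 library, the cell type counts ranged from 0 to 5 over both genotypes and in Eed+/+ cells and from 0 (without Eed-/- neuron replicate 1 or Eed-/- astrocyte replicate 4) to 26 (without Eed-/- astrocyte replicate 5) in Eed-/- cells. The interaction ranged from 1 (without Eed-/- astrocyte replicate 4) to 12 (without Eed-/- astrocyte replicate 5), genotype in astrocytes from 0 to 1, and genotype in neurons from 0 to 2795 (without Eed+/+ neuron replicate 1). Intervals for the 10 genes reached 1.36 to 4.58 to either side on the log2 scale in the comparisons over all labelled libraries, which limits what these libraries could show.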

Other observations

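The library without a group, labelled Eed-/- and with labels of both cell types, had reads for 7 of the 10 genes, which summed to 2082 unscaled CPM. Zbtb20 had 180 reads, Emx2 122, Sox2 82, Lhx2 31, Sox8 25, Nfix 20 and Nfia 1, while Sox9, Nfib and Hopx had 0. It detected 7 of 10 astrocyte markers at a sum of 9230 unscaled CPM and 2 of 10 neuron markers at 9.03.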
